A study of Mus musculus with 6 samples.

Results

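A set of 10 genes through which astrocytes maintain the fluid around neurons, out of 50559 in the deposited tables, was followed in mouse brain after WNT3 overexpression. They were chosen by name as Aqp4, Mlc1, Slc1a2, Slc1a3, Glul, Gja1, Gjb6, Slc4a4, Aldh1l1 and Aldoc, and all 10 had enough counts to be tested. The 6 RNA sequencing libraries came from C57 mice: 3 with the genotype label WNT3 Overexpressing and 3 labelled WNT3 control. The labels name neither the vector or promoter behind the overexpression, nor the treatment of the control mice, nor their age, nor whether each replicate is a different animal, so p-values cover the spread between these 6 samples only. The tissue label is auditory cortex, but the protocol for RNA extraction mentions striatum.

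Astrocytes take up glutamate released at synapses through the transporters GLT-1 (Slc1a2) and GLAST (Slc1a3), and glutamine synthetase (Glul) turns it into glutamine that is returned to neurons. Gap junctions made of connexin 43 (Gja1) and connexin 30 (Gjb6) join astrocytes into a network that spreads potassium and metabolites. At the endfeet, which wrap blood vessels, the water channel aquaporin-4 (Aqp4) and the membrane protein Mlc1 are concentrated. These genes are widely used as markers of astrocytes. In a bulk sample, fewer astrocytes and less RNA per astrocyte cannot be told apart.

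Total counts ranged from 54642400 to 71803617 in the overexpression libraries and from 42614588 to 55859274 in the controls. Wnt3 was measured at 98.8, 7.45 and 8.71 CPM (library-scaled counts, with TMM factors) in overexpression libraries 1 to 3, against 2.70, 1.91 and 1.74 CPM in controls 1 to 3. All 3 overexpression libraries were above every control, with a log2 fold change of 4.18 ± 1.02 (SE; edgeR adjusted p = 0.822). That adjusted p was the lowest of all tested genes and is shared by many genes below, so even the manipulated gene was not called. DESeq2 gave no adjusted p for Wnt3. Control 2 stood apart from the other 5 libraries. The short neuronal RNA Bc1, a gene chosen after its values were seen, had 97702 TPM (a level per transcript length) there and 24336 to 32645 TPM in the others. Among the 22360 tested genes, split into 8 bins of 2795 by transcript length, control 2 exceeded the mean of controls 1 and 3 by a median of 0.98 (log2 CPM) in the shortest bin. In the longest bin the median difference was -0.71, whereas the overexpression libraries differed from controls 1 and 3 by medians of -0.029 to 0.025 across the bins. Values of the 10 members are therefore given with and without control 2, which was singled out after its values were seen.

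Neuronal and glial markers of cortex were present in both groups. The excitatory neuron marker Slc17a7 stood at 584 to 637 TPM in overexpression libraries and 466 to 597 TPM in controls, but the summed level of all 11 excitatory markers was lower in overexpression, at 3741 to 3934 TPM, than in controls, at 4113 to 4238 TPM. The summed level of 10 striatal projection neuron markers was 212 to 287 TPM in overexpression libraries and 218 to 415 TPM in controls, highest in control 3. Among 20 further astrocyte markers the sums overlapped, at 2511 to 2785 TPM in overexpression libraries and 2489 to 2757 TPM in controls. On the CPM scale 15 of these 20 were lower and 5 higher (median log2 fold change -0.22, and -0.064 without control 2). Medians of the marker lists for other cells depended on single libraries, so each is given with its range when 1 library at a time was left out. The median was 0.038 (-0.013 to 0.099) for excitatory neurons, -0.045 (-0.22 to 0.061) for interneurons and -0.52 (-1.06 to -0.091) for striatal neurons. Glial lists stood at -0.36 (-0.55 to -0.16) for oligodendrocytes, -0.26 (-0.35 to -0.14) for their precursors and -0.24 (-0.46 to 0.019) for microglia. Vascular and border lists stood at 0.55 (0.24 to 0.65) for endothelium, 0.039 (-0.055 to 0.12) for pericytes, 0.65 (0.19 to 0.97) for meningeal fibroblasts and 0.062 (-0.97 to 0.76) for choroid plexus. Blood and leukocyte genes had 1.79 (1.18 to 2.997), which was 0.75 at a mean CPM of at least 1 and 2.77 with no filter on low counts. None of the 20 gene lists used here had a member that passed an adjusted p of 0.05 with edgeR, and DESeq2 called 7 list genes, 3 of them in the reactive astrocyte list. The part of other cell types in the values of the 10 members was not tested.

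By edgeR, 0 of the 10 members had an adjusted p under 0.05, as had 0% of all tested genes. None had an unadjusted p under 0.05 either, against 4.65% of all tested genes (1.86% higher, 2.8% lower in overexpression), and DESeq2 called 0 members and 0.25% of its genes. By sign, 8 of the 10 had a log2 fold change above 0 and 2 below, with a median of 0.043, against 49.3% above 0 and a median of -0.0069 over all tested genes. In 1 member, Gjb6, the overexpression and control libraries did not overlap. Over all tested genes 11.9% did not overlap, 5.89% with overexpression higher and 6.04% with it lower, so a share of 1 in 10 is near the background.

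**Figure D1:**
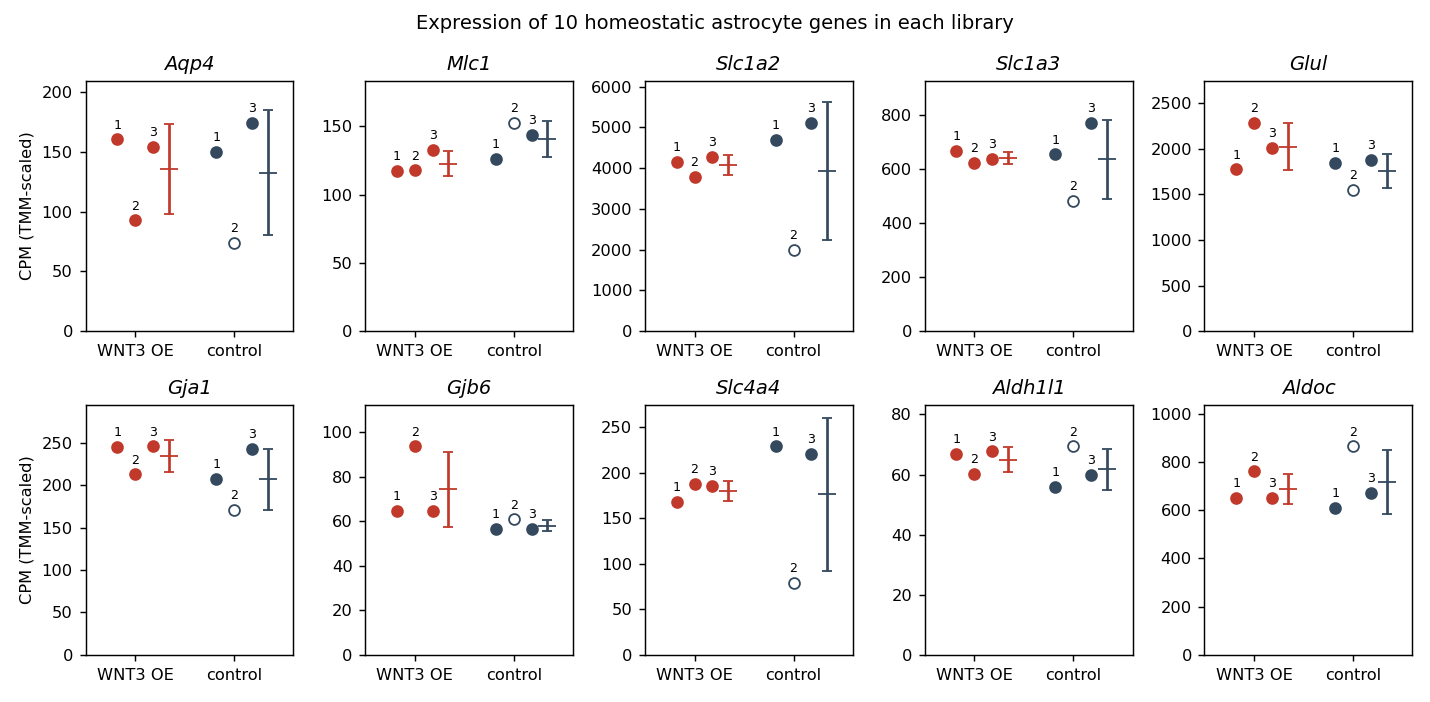
TMM-scaled CPM of each of the 10 genes in overexpression libraries 1 to 3 (red, left) and controls 1 to 3 (dark, right; control 2 as an open circle); numbers are replicates, bars are mean ± SD (n = 3). Slc1a2, Slc4a4 and Aqp4 are low in control 2, and Gjb6 is above every control in all 3 overexpression libraries.

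Per transcript length, the members spanned a wide range, and their group means kept the same order in both groups. Glul had the highest level, at 1782 ± 202 TPM in overexpression libraries and 1364 ± 391 TPM in controls (SD, n = 3). Slc1a2 was next, at 901 ± 64.2 and 782 ± 431 TPM in the same order of groups. It was followed by Aldoc at 633 ± 60.1 and 558 ± 35.0 TPM and Slc1a3 at 375 ± 23.7 and 332 ± 128 TPM. All control means here include control 2. Controls 1 and 3 had 991 and 1069 TPM of Slc1a2, both above every overexpression library, and 368 and 438 TPM of Slc1a3. For Glul they had 1580 and 1598 TPM, both below every overexpression library. Gja1 stood at 187 ± 17.04 TPM in overexpression and 147 ± 49.8 TPM in control. Mlc1 stood at 124 ± 5.97 TPM in overexpression and 125 ± 18.8 TPM in control. The other 4 were lower, from 89.9 ± 21.0 TPM for Gjb6 to 51.6 ± 3.83 TPM for Aldh1l1 in overexpression libraries, and from 60.9 ± 10.04 TPM for Gjb6 to 42.2 ± 4.87 TPM for Aldh1l1 in controls. In the overexpression libraries the ranges of Gjb6 and Aqp4 overlapped, as did those of Aqp4 and Slc4a4. Within each library, however, Gjb6 was above Aqp4, at 80.5, 114 and 75.2 TPM against 79.0, 44.3 and 70.9 TPM. Aqp4 was above Slc4a4 in overexpression libraries 1 and 3 and below it in library 2. In single controls the order differed too. In control 2 Slc1a2 (286 TPM) was below Aldoc (531 TPM). In controls 1 and 3 Gjb6 (67.6 and 65.8 TPM) was below both Aqp4 (69.1 and 80.8 TPM) and Slc4a4 (71.9 and 68.9 TPM).

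**Figure D2:**
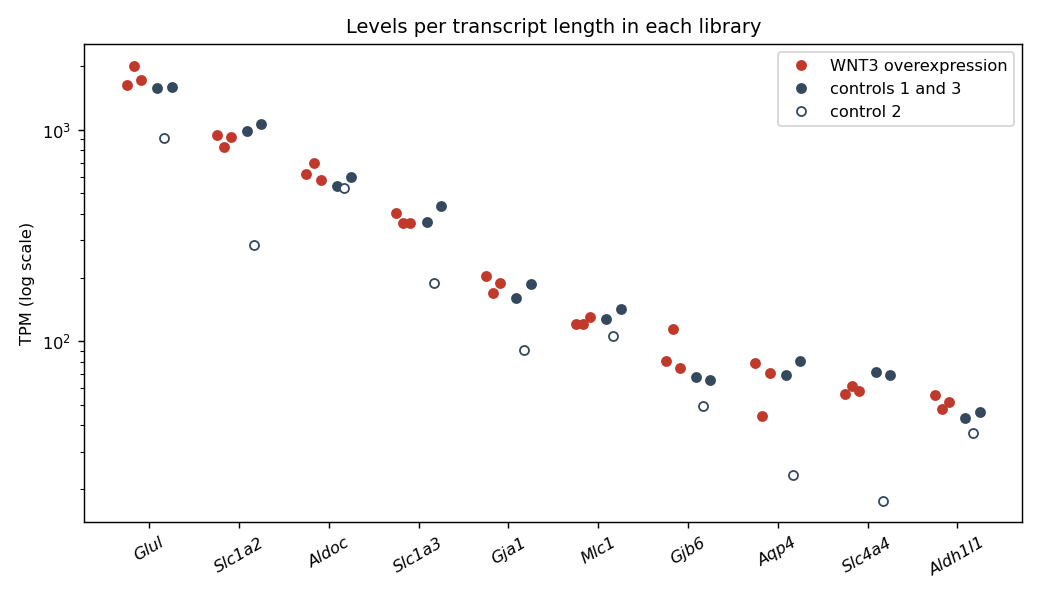
Level of each gene in TPM (log axis) in the 3 overexpression libraries (red), controls 1 and 3 (dark) and control 2 (open circle), ordered by the overexpression mean. By group mean Glul is highest and Aldh1l1 lowest, though Aldh1l1 is not lowest in every library. Control 2 has the lowest TPM of the 6 libraries in all 10 genes.

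TPM and CPM placed control 2 differently. On the TPM scale it was the lowest of the 6 libraries for all 10 members, whereas on the CPM scale it was the lowest for 6 members and the highest for Mlc1, Aldh1l1 and Aldoc. The TPM scale moved the median log2 difference of all genes, overexpression over control, to 0.18 over 19907 genes. Fold changes below are therefore on the CPM scale unless TPM is named.

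Promoter windows are shown for both members with a match to the binding sequence of Wnt-responsive factors, because the manipulated gene is a Wnt ligand, and for Gjb6, the 1 member whose groups did not overlap. The windows run from 250 bases before to 50 after a RefSeq gene start (build GRCm38.p6), and 9 of the 10 members, all but Aqp4, were matched to 11 of them. The TCF/LEF core CTTTGA, the sequence bound by the nuclear factors of canonical Wnt signalling, was searched on both strands. It was found in 2 of the 11 windows, that of Slc1a2 and 1 of Aldoc, against 5257 of all 32851 windows. Capitals mark it, or its reverse complement TCAAAG, and the Gjb6 window holds neither. The Slc1a2 window and the second Aldoc window surround RefSeq starts inside the gene, downstream of the outermost annotated start of each gene. In Slc1a2 the matches begin at -206 and -77 relative to that internal start, and in the second Aldoc window at -247. The half-site TTGGC of nuclear factor I, a factor of astrocyte development, was in 6 of the 11 windows, against 46.7% of all windows, and in the Slc1a2 window, the only member window with both motifs, their matches do not overlap. A match describes the letters alone, not a bound site. Slc1a2 is at chr2:102706188-102706487 (plus strand), Aldoc at chr11:78323948-78324247 (plus strand) and Gjb6 at chr14:57133562-57133861 (minus strand), each written 5′ to 3′ along its gene.
Slc1a2: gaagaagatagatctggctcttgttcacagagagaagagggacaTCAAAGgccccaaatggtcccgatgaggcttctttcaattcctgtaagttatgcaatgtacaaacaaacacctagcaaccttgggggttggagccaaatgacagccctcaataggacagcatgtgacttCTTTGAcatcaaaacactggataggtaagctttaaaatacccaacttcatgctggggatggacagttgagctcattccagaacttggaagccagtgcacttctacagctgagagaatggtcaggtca
Aldoc: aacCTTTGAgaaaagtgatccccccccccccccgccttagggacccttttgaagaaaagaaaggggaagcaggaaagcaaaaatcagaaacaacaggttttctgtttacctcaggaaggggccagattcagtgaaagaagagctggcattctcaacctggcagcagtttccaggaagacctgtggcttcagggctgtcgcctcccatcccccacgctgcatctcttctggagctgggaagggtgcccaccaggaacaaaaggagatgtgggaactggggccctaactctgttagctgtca
Gjb6: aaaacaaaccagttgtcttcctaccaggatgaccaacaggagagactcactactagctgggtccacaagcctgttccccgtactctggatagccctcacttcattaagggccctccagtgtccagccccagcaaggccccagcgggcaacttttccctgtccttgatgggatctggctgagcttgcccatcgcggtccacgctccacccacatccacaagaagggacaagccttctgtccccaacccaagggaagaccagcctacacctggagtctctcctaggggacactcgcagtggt
Beside these windows, the log2 fold changes were 0.053 ± 0.32 for Slc1a2, -0.057 ± 0.18 for Aldoc and 0.36 ± 0.19 for Gjb6 (SE), none of which passed the adjusted test.

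Slc1a2 is on chromosome 2 (mm10, 102658659 to 102790784, plus strand) and encodes GLT-1, the transporter that clears most of the glutamate in the forebrain. It had 4144, 3794 and 4286 CPM in overexpression libraries 1 to 3, against 4687, 1986 and 5115 CPM in controls 1 to 3. The overexpression values were close together and lay between control 2, which was low, and the other controls, which were higher. Its log2 fold change was 0.053 ± 0.32 (SE), with a 95% interval of -0.68 to 0.79 and an edgeR adjusted p of 0.967. Without control 2 it was -0.27 ± 0.081, with an edgeR unadjusted p of 0.0138 and an adjusted p of 0.732. Every overexpression library was then below both remaining controls, as in 10.7% of all tested genes. Without control 3 instead, the log2 fold change was 0.29.

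Slc1a3 (chromosome 15, 8634124 to 8710764, minus strand) encodes GLAST, the other glutamate transporter of astrocytes. It had 665, 621 and 637 CPM in overexpression libraries, against 653, 480 and 771 CPM in controls, so the control values enclosed those of overexpression. On the log2 scale the fold change was 0.015 ± 0.20 (SE; adjusted p = 0.987), -0.15 ± 0.094 without control 2 and -0.0065 without overexpression library 1. Within a library, the TPM ratio of Slc1a2 to Slc1a3 was 2.40 ± 0.15 in overexpression and 2.22 ± 0.62 in control (SD, n = 3), with the lowest ratio, 1.52, in control 2. A two-sided exact permutation test of this ratio gave p = 0.9, where 0.1 is the smallest p that 3 against 3 libraries allow. The log2 difference of the ratio was 0.16, and -0.096 without control 2.

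Glul (chromosome 1, 153899944 to 153909723, plus strand) encodes glutamine synthetase, which in cortex is mainly an astrocyte enzyme. It had 1771, 2283 and 2010 CPM in overexpression libraries, against 1841, 1546 and 1877 CPM in controls. Overexpression libraries 2 and 3 were above every control and library 1 was below 2 of them. Overexpression over control, the log2 fold change was 0.20 ± 0.17 (SE), with a 95% interval of -0.18 to 0.59 and an adjusted p of 0.822, and it was 0.12 ± 0.11 without control 2. The TPM ratio of Glul to Slc1a2 was 1.71, 2.43 and 1.85 in overexpression, against 1.59, 3.18 and 1.495 in control (exact permutation p = 1).

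The genes around this cycle differed in both directions. Of 10 genes for other uptake of glutamate, GABA, serine or glycine and for glutamine handling, 5 had higher and 5 lower levels in overexpression libraries. Their median log2 fold change was 0.0026, and -0.021 without control 2, and 0 passed the adjusted test. Unadjusted p was under 0.05 for 2 of the 10, against 4.65% of all tested genes. Slc38a5, a glutamine transporter, had 3.66, 2.62 and 2.66 CPM in overexpression libraries, against 1.01, 2.13 and 1.19 CPM in controls, a log2 fold change of 1.04 ± 0.37 (SE; adjusted p = 0.822), and 1.44 ± 0.28 without control 2. Slc7a10, a transporter of small neutral amino acids such as serine, had 11.4, 12.9 and 14.97 CPM, against 18.8, 34.7 and 15.98 CPM in controls. Its log2 fold change was -0.82 ± 0.31 (SE; adjusted p = 0.822), and -0.41 ± 0.16 without control 2. Both genes had groups that did not overlap, as had 11.9% of all tested genes.

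On the neuronal side of the cycle, 4 of 9 genes were above and 5 below 0 (median log2 fold change -0.00072, and 0.024 without control 2), none with an unadjusted p under 0.05. The smallest p values belonged to Slc38a2, a glutamine carrier, with a log2 fold change of 0.47 ± 0.23 (SE), and Slc17a8, a vesicular glutamate transporter, with -0.52 ± 0.29 (SE). Both had an adjusted p of 0.822.

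Gjb6 (chromosome 14, 57123303 to 57133611, minus strand) encodes connexin 30, which among brain cells is largely an astrocyte protein. It had 64.7, 93.7 and 64.7 CPM in overexpression libraries 1 to 3, against 56.5, 60.9 and 56.8 CPM in controls. Every overexpression library was above every control, by a small margin in libraries 1 and 3 and a larger one in library 2. The log2 fold change was 0.36 ± 0.19 (SE), with a 95% interval of -0.084 to 0.80, an unadjusted p of 0.0993 and an adjusted p of 0.822. It was 0.39 ± 0.18 without control 2 and 0.16 without overexpression library 2. In that library the endothelial marker list had a median of 0.88 (log2 CPM) relative to the control mean, against 0.35 and 0.19 in overexpression libraries 1 and 3. The median log2 fold change of that list, 0.55, was 0.24 without overexpression library 2. The summed level of the 11 endothelial markers ranged from 276.7 to 467.7 TPM in overexpression libraries and from 183.8 to 251.4 TPM in controls, and no first marker of the list (Cldn5, Flt1 or Pecam1) was at 0. Their part in the Gjb6 values was not tested.

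Gja1 (chromosome 10, 56377330 to 56402513, plus strand) encodes connexin 43, the main gap junction protein of astrocytes. It had 245, 213 and 246 CPM in overexpression libraries, against 207, 171 and 243 CPM in controls, with overlap through control 3. Gja1 had a log2 fold change of 0.18 ± 0.18 (SE; adjusted p = 0.828), and 0.061 ± 0.11 without control 2. The TPM ratio of Gja1 to Gjb6 was 2.52, 1.49 and 2.52 in overexpression, against 2.38, 1.85 and 2.85 in control. Overexpression library 2 had the lowest ratio of the 6 libraries, and the exact permutation p for the 2 groups was 0.7.

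Among 11 other connexin, pannexin and junction scaffold genes, 4 were above and 7 below 0 (median log2 fold change -0.14, and 0.056 without control 2), none with an unadjusted p under 0.05. Relative to the control mean, 10 oligodendrocyte markers had medians of -0.81, -0.36 and -0.0044 (log2 CPM) in overexpression, against -0.24, 0.38 and -0.15 in control. Their summed level was 2735 to 5619 TPM in overexpression libraries and 4142 to 4379 TPM in controls. Their part in the values of this list was not tested. Gjc1, which encodes connexin 45, had a log2 fold change of 0.50 ± 0.29 (SE; adjusted p = 0.822).

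Aqp4 (chromosome 18, 15389496 to 15410982, minus strand) encodes the water channel of astrocyte endfeet. It had 161, 92.7 and 154 CPM in overexpression libraries, against 150, 73.7 and 174 CPM in controls. Overexpression library 2 and control 2 were low, and the other 4 libraries lay together. Its log2 fold change was 0.033 ± 0.34 (SE), with a 95% interval of -0.75 to 0.81 and an adjusted p of 0.981, and it was -0.26 ± 0.23 without control 2. It was also below 0, at -0.098 and -0.074, without overexpression library 1 or 3. Aqp4 was the member with the widest spread among overexpression libraries, a coefficient of variation of 27.6%.

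Mlc1 (chromosome 15, 88955884 to 88979007, minus strand) encodes a membrane protein of perivascular endfeet whose loss in humans causes a leukoencephalopathy with brain swelling. It had 117, 118 and 133 CPM in overexpression libraries, against 126, 153 and 143 CPM in controls, and overlapped through overexpression library 3 and control 1. The log2 fold change was -0.20 ± 0.16 (SE; adjusted p = 0.822), and -0.14 ± 0.10 without control 2. The TPM ratio of Aqp4 to Mlc1 was 0.66, 0.37 and 0.54 in overexpression, against 0.54, 0.22 and 0.57 in control (exact permutation p = 0.6).

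Of 17 genes for potassium buffering, water movement and endfoot anchoring, 10 were above and 7 below 0 (median log2 fold change 0.019, and -0.045 without control 2), none with an unadjusted p under 0.05. Kcnj10, the inward rectifier potassium channel Kir4.1, stood at 73.4, 97.8 and 98.5 TPM in overexpression libraries, against 99.3, 45.9 and 106 TPM in controls. On this TPM scale control 2 was the lowest library for Kcnj10, as it was for every member. The smallest p values were those of Kcnk1, a leak potassium channel, at -0.34 ± 0.21 (log2 fold change ± SE), and Lrrc8a, a subunit of volume-regulated anion channels, at 0.28 ± 0.26. The adjusted p was 0.822 for each. Without control 2 they were at -0.20 ± 0.17 and 0.088 ± 0.19.

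Slc4a4 (chromosome 5, 88886818 to 89239653, plus strand) encodes the sodium bicarbonate cotransporter NBCe1, which buffers pH in and around astrocytes. It had 168, 187 and 186 CPM in overexpression libraries, against 229, 79.5 and 221 CPM in controls. Control 2 had 0.35 times the mean of the other controls, the lowest such ratio among the members, and the overexpression libraries lay between. With all libraries the log2 fold change was 0.032 ± 0.36 (SE; adjusted p = 0.983). Without control 2 it was -0.32 ± 0.089, with an edgeR unadjusted p of 0.00918 and an adjusted p of 0.700. Every overexpression library was then below both controls, as in 10.7% of all tested genes. Without control 1 instead, the log2 fold change was 0.27. Of 10 other bicarbonate and pH genes, 5 were higher and 5 lower (median log2 fold change 0.019, and -0.060 without control 2) and none had an unadjusted p under 0.05. Those with the smallest p were Car2, a carbonic anhydrase also strong in oligodendrocytes, at -0.41 ± 0.24 (log2 fold change ± SE), and the bicarbonate transporter Slc4a10, which is mainly neuronal, at 0.45 ± 0.28. Without control 2 these were -0.20 ± 0.18 and 0.19 ± 0.14.

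Aldh1l1 (chromosome 6, 90486427 to 90600203, plus strand) encodes a cytosolic enzyme that oxidises 10-formyltetrahydrofolate and is a widely used pan-astrocyte marker. It had 66.8, 60.1 and 67.7 CPM in overexpression libraries, against 55.9, 69.3 and 59.9 CPM in controls, and control 2 was the highest of the 6. Aldh1l1 had a log2 fold change of 0.071 ± 0.16 (SE; adjusted p = 0.904). Without control 2 it was 0.16 ± 0.10 (SE; adjusted p = 0.926). The overexpression libraries were then above both controls, the nearest pair being 60.1 and 59.9 CPM, as in 11.2% of all tested genes. Of 9 other genes of folate one-carbon metabolism, 8 were above and 1 below 0 (median log2 fold change 0.14), none with an unadjusted p under 0.05. That median was 0.19 without control 2, and 0.060 with the trend on transcript length removed. Mthfd1l, an enzyme of the mitochondrial folate pathway, was at 0.25 ± 0.19 (log2 fold change ± SE; adjusted p = 0.822).

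Aldoc (chromosome 11, 78322968 to 78327781, plus strand) encodes aldolase C, the brain form of a glycolytic enzyme. It had 652, 761 and 652 CPM in overexpression libraries, against 609, 865 and 673 CPM in controls, with the highest value in control 2. Its log2 fold change was -0.057 ± 0.18 (SE; adjusted p = 0.933), and 0.10 ± 0.10 without control 2. The TPM ratio of Aldoc to Aldoa, the aldolase of most tissues, was 0.463 ± 0.026 in overexpression and 0.466 ± 0.066 in control (SD, n = 3; exact permutation p = 1). Of 15 genes for glycolysis, lactate and glycogen, 9 were above and 6 below 0. The list had a median log2 fold change of 0.039, and 0.12 without control 2. Among these, Slc2a1, the glucose transporter GLUT1 of brain endothelium and astrocytes, had an unadjusted p under 0.05, as had 4.65% of all tested genes. It had 59.3, 136 and 87.1 CPM in overexpression libraries, against 46.2, 63.1 and 62.5 CPM in controls, a log2 fold change of 0.72 ± 0.30 (SE; adjusted p = 0.822), with the highest value in overexpression library 2. The part of the endothelial markers, also highest there, was not tested.

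The 5 pairwise ratios between genes of like role were tested together, and the adjusted p was 1 for each. For 4 pairs, Slc1a2 to Slc1a3, Aqp4 to Mlc1, Aldoc to Aldoa and Glul to Slc1a2, either the lowest or the highest ratio of the 6 libraries was in control 2. For Gja1 to Gjb6 the lowest was in overexpression library 2 and the highest in control 3. Without overexpression library 2 the log2 difference of Gja1 to Gjb6 was 0.12, against -0.14 with it, and without control 3 it was 0.012. For Aqp4 to Mlc1 it was 0.31, and -0.12 without control 2. Aldoc to Aldoa differed by 0.00072, and by -0.036, -0.0069 and -0.12 without overexpression library 2, overexpression library 3 or control 2. Glul to Slc1a2 differed by 0.0061, and by -0.14, -0.14 and -0.19 without overexpression library 2, control 1 or control 3. No direction can therefore be given for these ratios.

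The position of control 2 differed among the members with transcript length. Slc1a2, whose longest annotated transcript has 11595 bases, differed by -1.30 (log2 CPM) between control 2 and the mean of controls 1 and 3. Slc4a4 (7931 bases) differed by -1.50, Aqp4 (5054 bases) by -1.14 and Slc1a3 (4435 bases) by -0.56. The shorter Aldoc (2786 bases), Mlc1 (2801 bases) and Gjb6 (2105 bases) were at 0.43, 0.18 and 0.10. The order was not strict: Aldh1l1 (4175 bases) was at 0.26, Gja1 (3889 bases) at -0.39 and Glul (2792 bases) at -0.27. Against other genes of the same length bin, Slc4a4, Aqp4 and Slc1a2 stood at the 8.37th, 9.66th and 14.5th percentiles of this difference, and Aldh1l1 at the 69.8th.

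**Figure D3:**
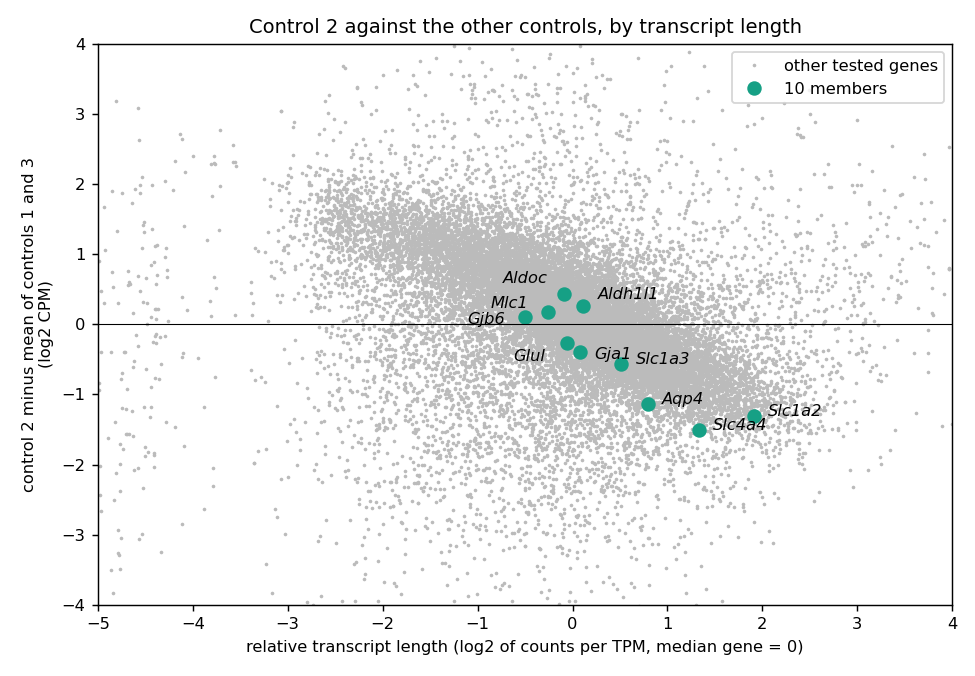
Difference between control 2 and the mean of controls 1 and 3 (log2 CPM) against relative transcript length for the tested genes (grey) and the 10 members (green); 503 genes lie outside the axes. Short transcripts were higher and long transcripts lower in control 2, and Slc1a2, Slc4a4 and Aqp4 are the lowest members.

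When a smooth trend on transcript length was removed from each library, a setting chosen after seeing the data, the fold changes of the long members were below 0. Slc1a2 had a log2 fold change of -0.051 ± 0.16 (SE), Slc4a4 -0.084 ± 0.21, Aqp4 -0.063 ± 0.26 and Slc1a3 -0.062 ± 0.13. Gjb6 had 0.47 ± 0.17, with an unadjusted p of 0.0277, against 6.43% of all genes under 0.05 in that fit, and 0% with an adjusted p under 0.05. The median over the members was -0.034, against 0.0027 over all genes.

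Without control 2, 5 members had a log2 fold change above 0 and 5 below, with a median of -0.037, against 0.017 over all genes. The overexpression libraries did not overlap controls 1 and 3 in 4 of 10 members: Slc1a2 and Slc4a4 were lower and Gjb6 and Aldh1l1 higher. Over all genes that share was 21.9% (10.7% lower, 11.2% higher). Of the 10, 2 (Slc1a2 and Slc4a4) had an unadjusted p under 0.05, both lower in overexpression, against 5.87% of all genes (2.8% lower, 3.07% higher), and 0% of genes passed the adjusted test.

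**Figure D4:**
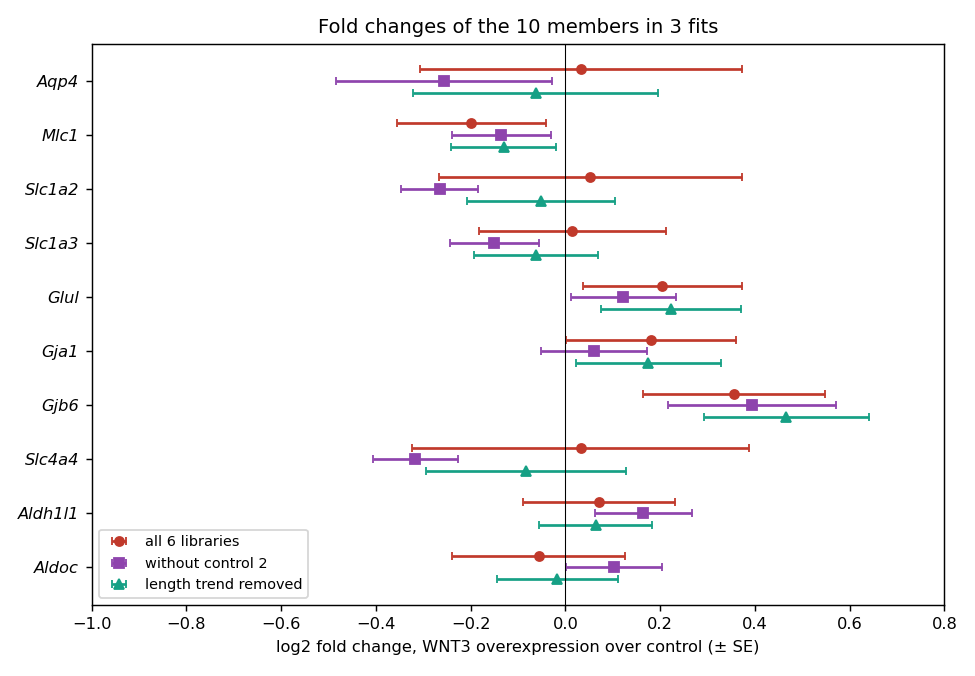
Log2 fold change ± SE of each member, WNT3 overexpression over control, with all 6 libraries (circles), without control 2 (squares) and with the length trend removed (triangles). Slc1a2, Slc4a4, Aqp4 and Slc1a3 are slightly above 0 with all libraries and below 0 in the other fits, and Gjb6 is above 0 in all 3.

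The spread of the members was wider among controls than among overexpression libraries for 8 of the 10. The coefficient of variation of Slc4a4 was 6.16% in overexpression and 47.6% in control, and that of Slc1a2 was 6.21% and 43.2%. For these genes the wide spread came with control 2: controls 1 and 3 alone had 229 and 221 CPM of Slc4a4 and 4687 and 5115 CPM of Slc1a2. The reverse held for Gjb6, at 22.5% in overexpression and 4.22% in control, and for Glul, at 12.7% and 10.3%. Fewest counts were behind Aldh1l1, 2383 in its lowest library, so counting error was at most 2.05% for any member. Overexpression library 1, with by far the highest Wnt3, had the highest of the 3 overexpression values for Aqp4 and Slc1a3, the lowest for Mlc1, Glul, Gjb6 and Slc4a4, and the middle one for the other 4.

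The members did not share one profile across the 6 libraries. Their mean profile, in log2 CPM centred on each gene's own mean, was 0.039, 0.030 and 0.086 in the overexpression libraries, against 0.027, -0.33 and 0.15 in the controls. Slc1a3 and Gja1 followed it most closely, with root mean square distances of 0.075 and 0.081, and Slc4a4 and Aqp4 least, with 0.37 and 0.34. Outside the members, the 5 genes closest to this profile among 10349 candidates were Septin3, Hnrnpul1, Sh3glb1, Tmem131l and Wac, at distances of 0.015 to 0.026 over the 6 libraries.

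Reactive astrocyte genes were mostly above the control mean, and none passed the adjusted test. Of 23 tested, 21 were above and 2 below 0 (median log2 fold change 0.64), against a median of 0.043 for the 10 members; the difference between the lists was not tested. Without overexpression library 1 the reactive median was 0.38. Unadjusted p was under 0.05 for 9 of them, all higher, against 1.86% of all genes that were higher at that p. The list was chosen with earlier results of these data known, so these counts are no independent evidence of a change. By library, the median of the list relative to the control mean (log2 CPM) stood at 1.02, 0.46 and 0.42 in overexpression, against -0.24, 0.14 and 0.049 in control. Blood and leukocyte genes, measured the same way, stood at 2.63, 1.61 and 1.14 in overexpression, against -0.89, 1.28 and 0.031 in control, with the neutrophil gene S100a8 at 40.4, 107 and 8.33 TPM, against 0.80, 2.05 and 0.83 TPM in controls. Meningeal fibroblast markers stood at 1.35, 0.55 and -0.27, against -0.18, -0.30 and 0.42 in controls, and endothelial markers at 0.35, 0.88 and 0.19, against 0.11, -0.18 and -0.062 in controls. Their part in the reactive list was not tested. For the 10 members the median was 0.11, 0.060 and 0.18, against 0.042, -0.22 and 0.17 in controls. Vim, an intermediate filament gene of reactive astrocytes and vessels, had 30.9, 32.4 and 31.7 CPM in overexpression libraries, against 14.1, 25.9 and 17.4 CPM in controls. Its log2 fold change was 0.73 ± 0.24 (SE; adjusted p = 0.822), and 1.01 ± 0.13 without control 2. Gfap, the astrocyte intermediate filament, had 252, 122 and 198 CPM, against 77.5, 126 and 139 CPM in controls, so overexpression library 2, the lowest of its group for Aqp4 and the highest for Gjb6, lay among the controls. Lcn2, a secreted iron-binding protein of inflammation, had 7.47, 37.1 and 1.88 CPM, against 0, 0.39 and 0.14 CPM in controls. Overexpression library 2 was also the highest for Serpina3n, a protease inhibitor, at 34.3 CPM, for the cytokine receptor Osmr at 23.1 CPM and for the copper carrier Cp at 54.9 CPM, against at most 7.89, 6.61 and 18.6 CPM in any control. The groups did not overlap for Vim, Lcn2, Serpina3n and Osmr, nor for Steap4 and S1pr3 below. Over all tested genes 5.89% did not overlap with overexpression higher. These genes were picked by their p in the same data, so the lack of overlap adds no separate evidence. The groups overlapped for Cp, at 17.1 CPM in overexpression library 3, below controls 1 and 3 at 18.6 and 17.98 CPM. The other 3 of the 9 were the metalloreductase Steap4, the hyaluronan receptor Cd44 and the lipid receptor S1pr3, each highest in overexpression library 1. Their log2 fold changes were 1.78 ± 0.48, 1.17 ± 0.44 and 0.64 ± 0.26 (SE; adjusted p = 0.822 for each). Cd44 overlapped, with 2.30 CPM in overexpression library 2 and 2.79 CPM in control 3, and Steap4 had as few as 11 counts in a library.

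**Figure D5:**
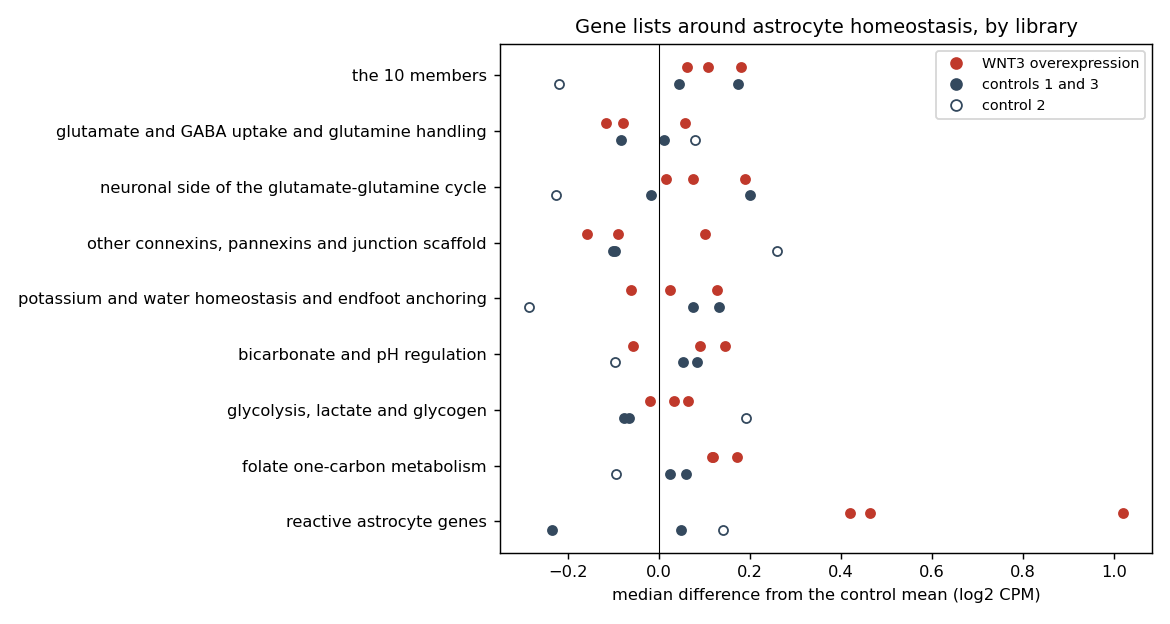
Median difference from the control mean (log2 CPM) of the 10 members and of 8 gene lists in each overexpression library (red), controls 1 and 3 (dark) and control 2 (open circle). The reactive astrocyte list is above every control in all 3 overexpression libraries, at 0.42 to 1.02, while the members lie at 0.060 to 0.18 and overlap the controls. Members and lists were chosen with earlier results of these data known.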

How the data were processed

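RNA was extracted with Trizol and made into strand-specific TruSeq libraries, per the labels' protocols. The submitters' processing notes name FastQC 0.11.5, STAR 2.5.3a, Cuffnorm, DESeq 1.16.1 and mm10; the annotation and strand setting of the counting were not given in the sources used for this work. The authors' deposited gene counts are whole numbers, not normalized. The authors' deposited TPM values sum to the same total in each library.

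Genes were tested with the edgeR 4.0.16 quasi-likelihood method in R 4.3.3 (limma 3.58.1, DESeq2 1.42.0 for alternatives) after filterByExpr (minimum count 10), which kept 22360 of 50559, with TMM factors and Benjamini-Hochberg adjustment over all of them. SE is the fold change over the square root of F, and 95% intervals use the fit's degrees of freedom. Relative length is deposited counts over TPM, and its trend in each library was removed as a lowess curve of span 0.3. Positions are from GENCODE M21 (mm10). Opposite-strand genes overlapping Glul, Slc1a2 and Aldh1l1 had at most 149 counts in a library. An antisense gene overlapping Aqp4 was not found by name in the deposited counts, so its reads are unknown.

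The fits were tested on simulated data. The named genes are the members, Wnt3, the first markers of lists, list members with an unadjusted p under 0.05 or else the 2 smallest, genes in ratios and the 5 closest profiles. A few genes that this rule names are not reported here. The members and the 20 lists (227 genes, 219 tested) were chosen with earlier results of these data known.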

Additional observations from a re-analysis of the deposited data

How the results depend on the processing

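Across the alternatives (3 other scalings, 2 other filters on low counts, DESeq2, limma voom, 3 limma fits on log2 TPM, the replicate block, an adjusted p of 0.1, leaving out each library and, added after seeing the data, removal of the length trend) no member passed the adjusted test. The number of genes called was 0 in all of them except DESeq2, which called 64, with 7 list genes among them. Aldh1l1, Gja1, Gjb6, Glul and Mlc1 kept the sign of their log2 fold change throughout. In the TPM fits, where all genes shifted by a median of 0.18, Aldoc was at 0.18, Aqp4 at 0.30, Slc1a2 at 0.42, Slc4a4 at 0.39, Slc1a3 at 0.26 and Mlc1 at -0.0061 (pseudocount 1), and 12 of 20 list medians moved. With the length trend removed, Aqp4 was at -0.063, Slc1a2 at -0.051, Slc1a3 at -0.062 and Slc4a4 at -0.084.

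Leaving out 1 library at a time gave 0 to 0 calls and log2 fold changes of -0.26 to 0.28 for Aqp4, -0.27 to 0.29 for Slc1a2, -0.15 to 0.18 for Slc1a3, -0.32 to 0.27 for Slc4a4 and -0.16 to 0.10 for Aldoc. The log2 differences of the ratios ran from -0.096 to 0.32 for Slc1a2 to Slc1a3, -0.30 to 0.12 for Gja1 to Gjb6, -0.12 to 0.55 for Aqp4 to Mlc1, -0.12 to 0.073 for Aldoc to Aldoa and -0.19 to 0.35 for Glul to Slc1a2. The causes were not tested.

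Same-numbered libraries did not deviate together (correlations 0.051, -0.019 and -0.0049), and the fit with the replicate number as a block called 0 genes, with log2 fold changes of 0.16 for Slc1a2 and 0.33 for Gjb6. Counting error is at most 2.05% for any member and does not cover the spread between libraries.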
